A study of Homo sapiens with 82 samples.

Results

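Pyruvate dehydrogenase kinases and phosphatases are 6 genes, PDK1, PDK2, PDK3, PDK4, PDP1 and PDP2, of the 51838 rows in the deposited RNA-seq count tables. They were chosen by symbol, and each symbol had 1 row. Expression was measured in HT29, a human colorectal adenocarcinoma cell line, after drug treatment with GW3965, T0901317 or rosiglitazone at 10 µM for 24 or 48 h, or under control culture conditions containing the carrier DMSO. GW3965 and T0901317 are agonists of the liver X receptors (LXRs), and rosiglitazone is an agonist of peroxisome proliferator-activated receptor gamma (PPARG). Each of the 8 groups of 1 agent and 1 time point had 4 libraries. Per the methods of the study, the medium used before the drugs were added lacked phenol red and held charcoal-treated serum.

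The pyruvate dehydrogenase complex of mitochondria converts pyruvate into acetyl-CoA and so opens the citric acid cycle to carbon from glycolysis. The kinases PDK1 to PDK4 phosphorylate the E1 alpha subunit of the complex and switch it off, and the phosphatases PDP1 and PDP2 remove the phosphate and switch it on again. Tissues differ in which isoforms they express, and PDK4 is known for its induction by fasting and by PPAR ligands.

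Total counts lay between 21044798 and 51332656 per library, and the lowest counts of the 6 genes were those of PDK3, with 11 to 98 per library. The other 5 genes had between 114 and 3551 counts in a library. Levels are CPM (counts per 1000000 counts of a library, after TMM scaling over all 32 libraries), and they give a share of the mRNA, so that fewer cells of a type and less RNA per cell cannot be told apart. The epithelial markers EPCAM (241 to 365 CPM) and KRT8 (7108 to 11090 CPM) were expressed in every library. KRT18, KRT20, LGALS4 and VIL1 were at 53.3 CPM or more. The rest of the epithelial list was CEACAM5 (10.8 to 79.8 CPM), CDX2 (6.46 to 20.8 CPM), CDH17 (3.79 to 13.1 CPM) and CDX1 (0.735 to 4.02 CPM). The leukocyte markers PTPRC and CD3E and the hepatocyte marker ALB stayed at or under 0.155 CPM. Of the fibroblast markers, COL1A2 did not exceed 0.116 CPM and COL1A1 lay between 2.44 and 8.46 CPM. The labels number the replicates without naming separate cultures, so the p-values measure the spread between these libraries, which may be technical.

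**Figure D1:**
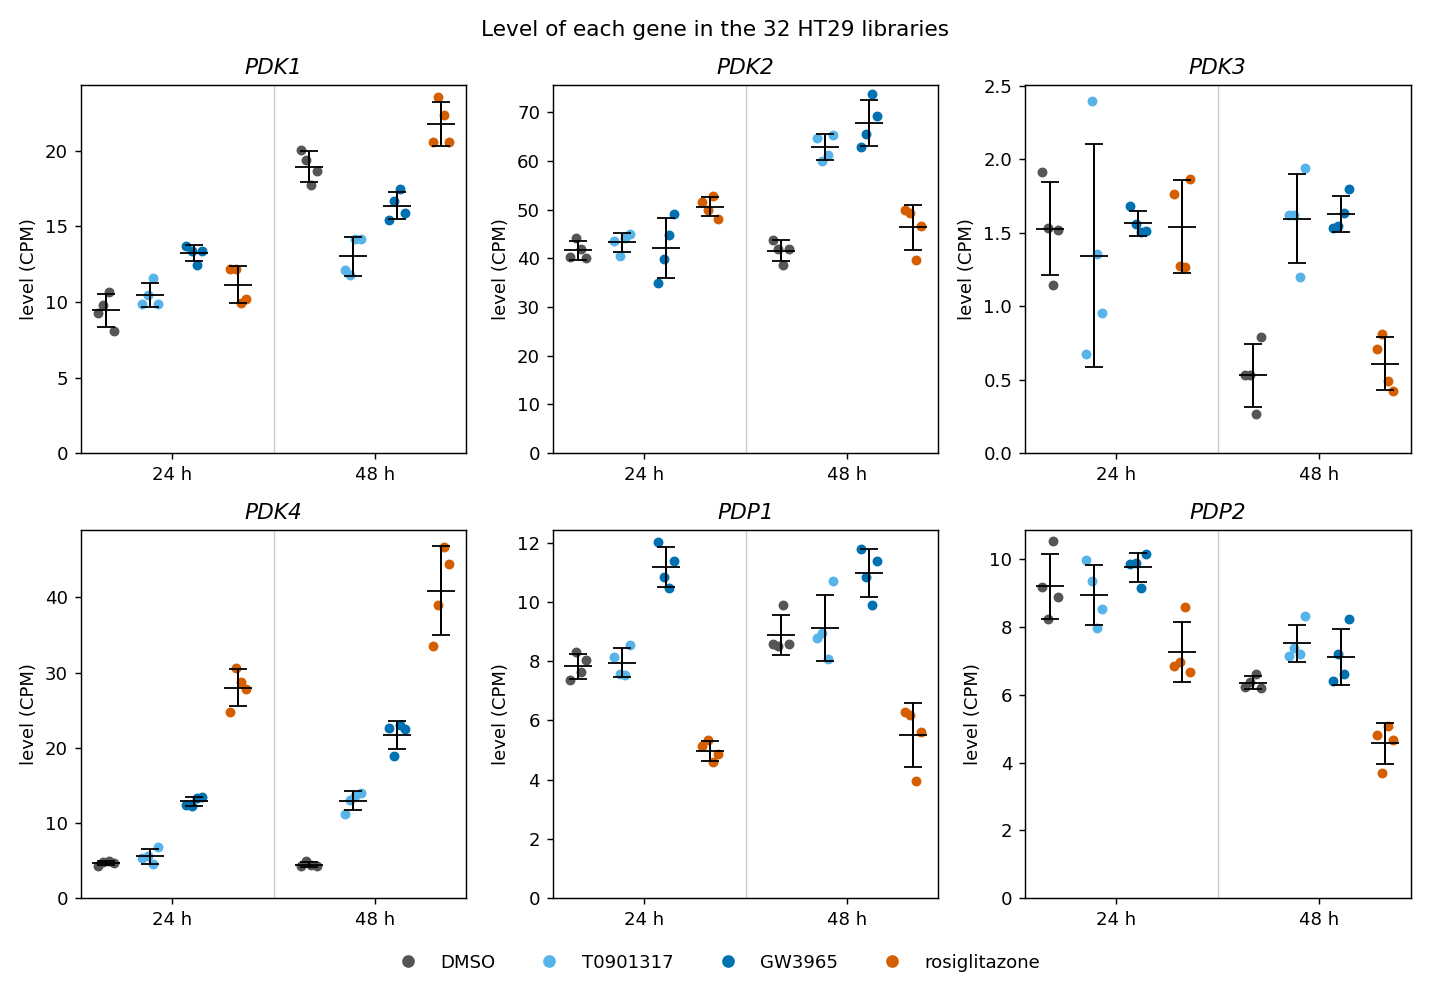
Level in CPM (y axis, from 0) of the 6 genes in each of the 32 libraries, by agent (colour) and time point (x axis); horizontal bars mark the mean and error bars the SD of 4 libraries. All PDK4 libraries of GW3965 and rosiglitazone lie above all DMSO libraries at both time points, and the PDK3 libraries of DMSO and rosiglitazone at 48 h lie below 1 CPM.

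A gene passed the test at a Benjamini-Hochberg adjusted p under 0.01 over all genes of the fit (edgeR quasi-likelihood test), the threshold on p that the study used. All 6 genes were tested in every comparison. After 24 h, 3 of the 6 were higher with GW3965 and none lower, against 1.86% of all tested genes higher and 0.868% lower. With T0901317 none of the 6 passed with edgeR or DESeq2, and PDK4 alone had an unadjusted p under 0.05, where 1.33% of all genes were higher and 0.119% lower. Rosiglitazone raised 1 and lowered 1, against 5.81% and 6.52%. After 48 h, 3 genes were higher with GW3965 and none lower (16.1% and 17.5% of all genes). With T0901317, 3 were higher and 1 lower (14.0% and 16.1%), and with rosiglitazone 1 was higher and 2 lower (12.3% and 13.1%). Scaling by library size alone moved the share of higher genes among all calls from 68.2% to 55.4% for GW3965 at 24 h, from 47.1% to 25.2% for rosiglitazone at 24 h and from 48.4% to 20.1% for rosiglitazone at 48 h. Each time point has 1 set of 4 DMSO libraries that all 3 drugs are compared with, so these counts are not independent of each other.

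PDK4 was up-regulated by rosiglitazone and GW3965 at both time points and by T0901317 at 48 h. PDK4 encodes the kinase isoform whose transcript responds most to nutritional state, and the sequence before its RefSeq start site is shown here as the regulatory sequence nearest to the member with the clearest response. PDK3 is set beside it as the gene with the next largest changes. Each is the 250 bases before the annotated start, 5′ to 3′ on the strand of the gene, from RefSeq on build GRCh38.p14, at chr7:95596517-95596766 on the minus strand for PDK4 and at chrX:24465036-24465285 on the plus strand for PDK3. Capitals mark matches on either strand to the CCAAT box (CCAAT) and the GC box (GGGCGG), elements bound by general activators of promoters.
PDK4: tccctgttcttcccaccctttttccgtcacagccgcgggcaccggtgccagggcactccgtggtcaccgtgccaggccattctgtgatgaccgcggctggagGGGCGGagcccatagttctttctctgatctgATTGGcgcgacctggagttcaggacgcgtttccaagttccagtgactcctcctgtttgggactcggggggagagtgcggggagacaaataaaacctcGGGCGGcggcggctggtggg
PDK3: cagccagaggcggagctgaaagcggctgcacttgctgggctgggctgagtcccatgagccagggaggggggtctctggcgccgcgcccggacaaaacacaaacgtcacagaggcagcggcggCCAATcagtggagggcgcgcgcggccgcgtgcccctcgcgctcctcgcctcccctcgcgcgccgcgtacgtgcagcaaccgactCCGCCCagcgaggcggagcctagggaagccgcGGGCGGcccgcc

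Promoter windows on chromosome 8 were left out of the search. Among the windows kept, 5 of the 6 genes were present, with 8 start sites between them. PDP1 had no window among those kept, so its promoter was not searched. Over the same 250 bases, 5 of the 8 windows held CCAAT, against 11240 of the 35116 windows kept for all genes. GGGCGG was in 6 of the 8, against 42.6%. The sequence AGGTCA is the core motif recognised by nuclear receptors such as LXR and PPARG with RXR. It was in none of the 8 windows on either strand, against 12.1% of the windows kept. These letters were searched only in this window, and sites that lie elsewhere were not examined. ACGTG, the core of the hypoxia response element, was in 4 of the 8 windows, against 18.5% of the windows kept. Of these 4, 1 each was at PDK1, PDK2, PDK3 and PDP2, and none at PDK4. The motifs were searched without mismatches, and the matches are a description of these letters only.

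In DMSO, PDK4 (ENSG00000004799.6) lay at 4.24, 4.86, 4.89 and 4.63 CPM in the 4 libraries of 24 h and at 4.26, 4.93, 4.34 and 4.21 CPM in those of 48 h. The 24 h libraries of GW3965 held 12.4, 12.3, 13.4 and 13.5 CPM, and those of rosiglitazone 24.7, 30.6, 28.8 and 27.8 CPM. Both groups lay wholly above DMSO, and rosiglitazone lay wholly above GW3965. T0901317 gave 5.31, 5.64, 4.49 and 6.79 CPM at 24 h, and 1 of these 4 libraries fell within the range of DMSO. At 48 h the libraries of T0901317 held 11.3, 13.0, 13.6 and 14.0 CPM, those of GW3965 22.6, 18.9, 23.0 and 22.4 CPM, and those of rosiglitazone 33.5, 39.0, 46.8 and 44.4 CPM. None of these 4 groups of 48 h, DMSO included, overlapped another. The order of the mean levels was thus DMSO, T0901317, GW3965 and rosiglitazone at both times.

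The increase of PDK4 was 5.99-fold with rosiglitazone at 24 h, a log2 change of 2.58 ± 0.10 (SE) with an adjusted p of 1.12e-12, and 9.09-fold at 48 h (3.18 ± 0.11, adjusted p = 1.25e-13). With GW3965 it was 2.77-fold at 24 h (1.47 ± 0.10, adjusted p = 8.88e-09) and 4.89-fold at 48 h (2.29 ± 0.11, adjusted p = 8.69e-12). T0901317 gave a log2 change of 0.26 ± 0.11 at 24 h, which did not pass (adjusted p = 0.337; 95% interval 0.03 to 0.48), and a 2.93-fold increase at 48 h (1.55 ± 0.11, adjusted p = 2.19e-09).

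PDK2, a kinase isoform found in most tissues, passed the test with both LXR agonists at 48 h and in no other comparison with DMSO. In the 48 h libraries PDK2 (ENSG00000005882.6) was at 43.8, 41.9, 38.7 and 42.0 CPM with DMSO, at 62.7, 65.5, 73.6 and 69.2 CPM with GW3965, and at 64.7, 60.0, 61.3 and 65.4 CPM with T0901317. Every library of an LXR agonist lay above every DMSO library. The increases were 1.62-fold with GW3965 (log2 change 0.70 ± 0.07, adjusted p = 2.00e-07) and 1.51-fold with T0901317 (0.60 ± 0.07, adjusted p = 1.73e-06). With rosiglitazone at 48 h the level was 49.9, 49.2, 39.6 and 46.6 CPM, which overlapped DMSO (adjusted p = 0.156).

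At 24 h PDK2 averaged 41.6 ± 1.88 CPM (SD, n = 4) with DMSO, 42.2 ± 6.14 CPM with GW3965 and 43.3 ± 1.94 CPM with T0901317. These 3 groups overlapped, and neither agonist passed the test (adjusted p = 0.961 and 0.851). The rosiglitazone libraries of that time, at 51.5, 49.9, 52.9 and 48.1 CPM, lay wholly above DMSO by a log2 change of 0.28 ± 0.08. This missed the threshold (adjusted p = 0.0166), but passed it with DESeq2 (adjusted p = 0.00711), with the fit of all 32 libraries (0.00777) and with the fit of only the 8 libraries compared (0.00102).

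PDK3, a kinase isoform with a narrow expression across tissues, passed with both LXR agonists at 48 h and in no other comparison with DMSO. PDK3 (ENSG00000067992.8) was at 0.529, 0.531, 0.268 and 0.791 CPM with DMSO at 48 h, at 1.53, 1.54, 1.63 and 1.79 CPM with GW3965, and at 1.62, 1.62, 1.20 and 1.94 CPM with T0901317. The LXR agonists lay wholly above DMSO, while rosiglitazone, at 0.706, 0.810, 0.490 and 0.425 CPM, overlapped it. GW3965 raised it 3.08-fold, a log2 change of 1.62 ± 0.25 (adjusted p = 2.91e-05), and T0901317 raised it 3.04-fold (1.60 ± 0.25, adjusted p = 3.74e-05). With rosiglitazone it was 0.19 ± 0.29 (adjusted p = 0.642).

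At 24 h the groups were not separated. PDK3 was at 1.91, 1.53, 1.14 and 1.51 CPM with DMSO, at 1.68, 1.56, 1.5 and 1.51 CPM with GW3965, and at 1.76, 1.27, 1.26 and 1.86 CPM with rosiglitazone. T0901317 was the most variable group, at 0.673, 2.40, 1.35 and 0.953 CPM. All 4 groups overlapped and no drug passed the test, the adjusted p being 0.978, 0.984 and 0.817 in that order. The level of PDK3 at 48 h with either LXR agonist was thus close to that of DMSO at 24 h, 1.53 ± 0.316 CPM (SD, n = 4), and the DMSO level itself was lower at 48 h, 0.530 ± 0.213 CPM.

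PDK1, the isoform known as a target of the hypoxia-inducible factor HIF1, was higher with GW3965 at 24 h and lower with T0901317 at 48 h. At 24 h PDK1 (ENSG00000152256.8) was at 9.27, 9.81, 10.7 and 8.05 CPM with DMSO and at 13.7, 13.4, 12.4 and 13.3 CPM with GW3965. The GW3965 libraries lay wholly above DMSO, a 1.40-fold increase (log2 change 0.48 ± 0.09, adjusted p = 0.00238). This call rests on a narrow margin, since the adjusted p was 0.0106 without DMSO replicate 1, 0.0126 without DMSO replicate 4 and 0.0115 with scaling by library size alone. T0901317, at 9.89 to 11.6 CPM, and rosiglitazone, at 9.95 to 12.2 CPM, overlapped DMSO and did not pass (adjusted p = 0.601 and 0.0869).

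By 48 h the DMSO libraries held 20.1, 19.4, 17.7 and 18.7 CPM of PDK1, and T0901317 held 12.1, 11.8, 14.1 and 14.1 CPM. PDK1 was down-regulated by T0901317, with every library below every DMSO library, by a log2 change of -0.54 ± 0.08 (adjusted p = 1.75e-05). GW3965 gave 15.4, 16.7, 17.5 and 15.9 CPM, which also lay wholly below DMSO, but the log2 change of -0.22 ± 0.08 missed the threshold (adjusted p = 0.0305). Rosiglitazone gave 20.6, 23.6, 22.3 and 20.5 CPM, wholly above DMSO, with a log2 change of 0.18 ± 0.08 that missed it as well (adjusted p = 0.0809) and was -0.00127 with scaling by library size alone, where the median of all genes moved by -0.18 in this comparison.

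PDP1, the calcium-stimulated phosphatase isoform, moved in opposite directions with rosiglitazone and GW3965. At 24 h PDP1 (ENSG00000164951.11) was at 7.36, 8.31, 7.62 and 8.02 CPM with DMSO, at 5.14, 5.34, 4.58 and 4.85 CPM with rosiglitazone and at 12.0, 10.8, 10.5 and 11.4 CPM with GW3965. The 3 groups did not overlap. PDP1 was lower with rosiglitazone by a log2 change of -0.66 ± 0.08 (1.58-fold, adjusted p = 8.28e-06) and higher with GW3965 by 0.51 ± 0.08 (1.43-fold, adjusted p = 0.000216). T0901317, at 7.54 to 8.55 CPM, overlapped DMSO (log2 change 0.03 ± 0.08, adjusted p = 0.950).

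At 48 h the decrease with rosiglitazone was again present. PDP1 was at 8.58, 8.50, 9.91 and 8.58 CPM with DMSO and at 6.28, 6.19, 3.95 and 5.59 CPM with rosiglitazone, with no overlap (log2 change -0.72 ± 0.13, adjusted p = 0.000162). The GW3965 libraries, at 11.8, 10.8, 9.89 and 11.4 CPM, overlapped DMSO by 1 library, and the log2 change of 0.30 ± 0.12 missed the threshold (adjusted p = 0.0490), although it passed in the fit of only the 8 libraries compared (0.00622). With T0901317 the log2 change was 0.04 ± 0.12 (adjusted p = 0.832).

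PDP2, the phosphatase isoform that does not depend on calcium, was lower with rosiglitazone and did not pass with either LXR agonist. At 48 h PDP2 (ENSG00000172840.1) was at 6.23, 6.37, 6.61 and 6.21 CPM with DMSO and at 4.81, 3.70, 5.09 and 4.68 CPM with rosiglitazone. The groups did not overlap, and the log2 change was -0.49 ± 0.11 (1.41-fold, adjusted p = 0.00132). At 24 h DMSO gave 9.17, 8.24, 10.5 and 8.89 CPM and rosiglitazone 6.85, 6.95, 8.60 and 6.68 CPM. Here 1 rosiglitazone library reached into the DMSO range, and the log2 change of -0.35 ± 0.10 missed the threshold (adjusted p = 0.0159). It passed without that library, replicate 3 (adjusted p = 0.00395), and with scaling by library size alone (0.00462). The LXR agonists gave log2 changes of PDP2 between -0.04 and 0.24 over both times (adjusted p between 0.0676 and 0.935). With T0901317 at 48 h PDP2 lay at 7.14 to 8.34 CPM, wholly above DMSO, but the log2 change of 0.24 ± 0.10 missed the threshold (adjusted p = 0.0676). In the other comparisons of an LXR agonist with DMSO the groups overlapped.

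**Figure D2:**
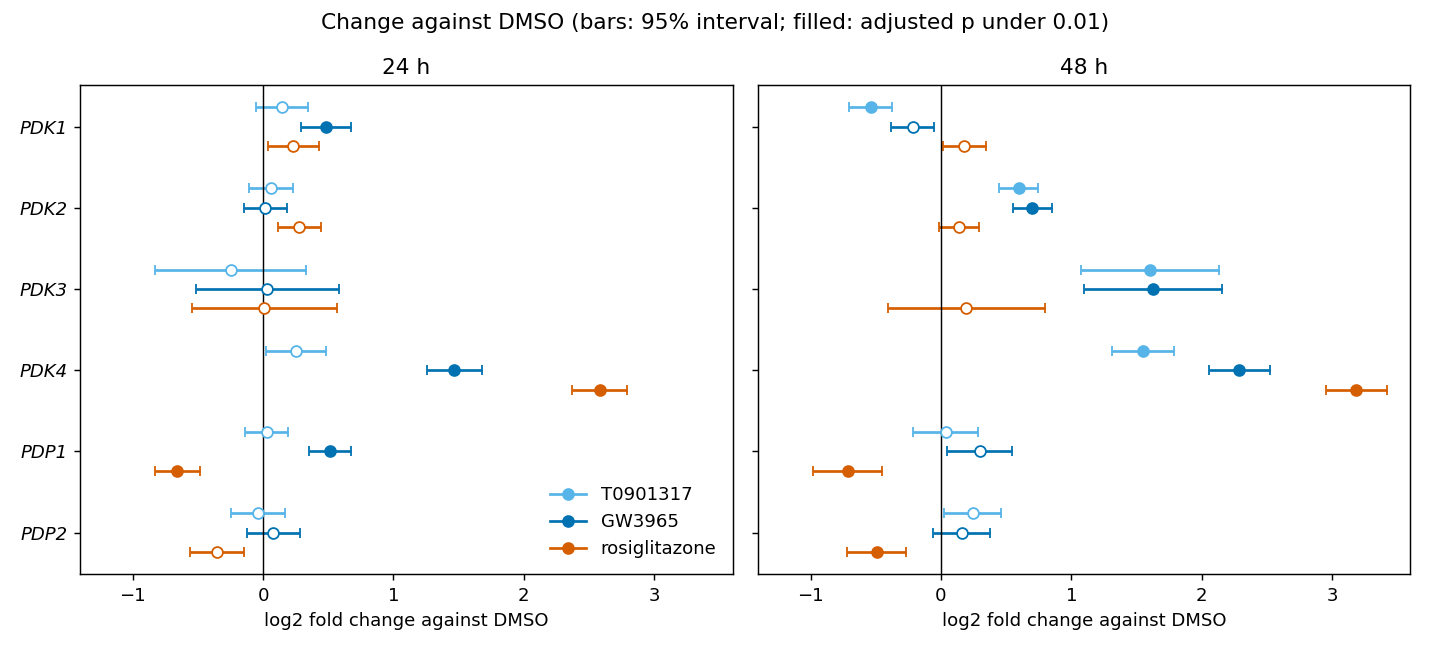
Log2 fold change against DMSO (x axis) of the 6 genes (y axis) at 24 h (left) and 48 h (right) for each drug (colour); bars are 95% intervals and filled points passed at an adjusted p under 0.01. PDK4 reaches 3.18 with rosiglitazone at 48 h, PDK2 and PDK3 are filled only for the LXR agonists at 48 h, and PDP1 lies left of 0 only with rosiglitazone.

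The LXR agonists were then compared directly at the same dose and time. At 24 h, 2 of the 6 genes differed, both higher with GW3965, where 0.790% of all genes differed. They were PDK4, by a log2 difference of 1.21 ± 0.10 (2.32-fold, adjusted p = 7.54e-07), and PDP1, by 0.49 ± 0.08 (1.40-fold, adjusted p = 0.00142), although PDP1 did not pass in the fit of only the 8 libraries compared (0.0201). PDK1 lay wholly higher with GW3965 but missed the threshold (0.33 ± 0.09, adjusted p = 0.0788). For PDK2 the 95% interval of the difference was -0.21 to 0.12, and for PDK3 it was -0.29 to 0.85.

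At 48 h the difference in PDK4 was 0.74 ± 0.10 (1.67-fold, adjusted p = 9.53e-05), again higher with GW3965. PDK1 also differed, by 0.32 ± 0.08 (adjusted p = 0.00816), so 2 of the 6 differed where 8.36% of all genes did. The call for PDK1 was lost, leaving 1 gene, on leaving out T0901317 replicate 1 or 2 or any 1 of the 4 GW3965 libraries (adjusted p between 0.0124 and 0.0329), and with scaling by library size alone (0.0364). The 95% interval of the difference was -0.04 to 0.25 for PDK2, -0.43 to 0.47 for PDK3, 0.01 to 0.51 for PDP1 and -0.30 to 0.13 for PDP2, and none of these passed.

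Rosiglitazone and GW3965, agonists of different receptors, differed for more of the 6 genes than the LXR agonists did. They also differed for more of all tested genes. At 24 h, 3 of the 6 passed, against 10.7% of all genes. PDK4 was higher with rosiglitazone by 1.11 ± 0.09 on the log2 scale (adjusted p = 4.00e-08), and PDP1 was lower by a log2 difference of -1.17 ± 0.08 (2.25-fold, adjusted p = 3.27e-09). PDP2 was lower as well (-0.43 ± 0.10, adjusted p = 0.00408), a call that was lost on leaving out GW3965 replicate 2 or 4 or rosiglitazone replicate 1, 2 or 4 (adjusted p between 0.0136 and 0.0183).

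At 48 h all 6 genes differed between rosiglitazone and GW3965, at a time when 45.0% of all tested genes did. PDK4 was higher with rosiglitazone by 0.90 ± 0.10 (1.86-fold) and PDK1 by 0.40 ± 0.08 (1.32-fold), both on the log2 scale. The other 4 were lower, by -1.43 ± 0.25 for PDK3, -1.01 ± 0.12 for PDP1, -0.65 ± 0.11 for PDP2 and -0.56 ± 0.07 for PDK2. The largest adjusted p of these 6 was 0.000238. With rosiglitazone the kinase PDK4 was thus at its highest and both phosphatases at their lowest mean level at each time point.

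Next, an interaction term in a model of all 32 libraries was used to compare the response after 48 h with that after 24 h. For GW3965, 4 of the 6 responses differed between the times, where 21.6% of all genes did. With T0901317 it was the same 4 genes, PDK1, PDK2, PDK3 and PDK4, against 17.4% of all genes, and both tests use the same DMSO libraries. With rosiglitazone none of the 6 passed, against 2.45% of all genes; at an unadjusted p under 0.05, PDK4 was the only one of the 6, with a log2 difference of 0.62 ± 0.15 (adjusted p = 0.0112), and DESeq2 called it (adjusted p = 0.00331).

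The response of PDK4 to GW3965 was larger at 48 h by a log2 difference of 0.82 ± 0.15 (adjusted p = 9.20e-05), and that to T0901317 by 1.30 ± 0.16 (adjusted p = 1.95e-07). The DMSO level of PDK4 gave no call between the times (log2 difference -0.07 ± 0.12, adjusted p = 0.660), nor did that of PDK2, at 41.6 ± 1.88 CPM at 24 h and 41.6 ± 2.10 CPM at 48 h (SD, n = 4). For PDK2 the response to GW3965 was larger at 48 h by 0.69 ± 0.11 (adjusted p = 9.45e-06) and that to T0901317 by 0.54 ± 0.11 (adjusted p = 0.000304), both on the log2 scale.

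Under control culture conditions PDK1, PDK3 and PDP2 differed between the times. In DMSO, 3 of the 6 genes differed between 48 and 24 h, where 38.6% of all genes did. PDK1 was higher at 48 h by a log2 difference of 1.002 ± 0.09 (2.00-fold, adjusted p = 1.52e-11), PDK3 was lower by -1.54 ± 0.29 (2.90-fold, adjusted p = 4.11e-05) and PDP2 was lower by -0.54 ± 0.10 (1.45-fold, adjusted p = 3.88e-05). From 24 to 48 h the log2 response of PDK3 to GW3965 increased by 1.59 ± 0.38 (adjusted p = 0.00147) and its response to T0901317 by 1.85 ± 0.39 (adjusted p = 0.000436). That of PDK1 decreased by a log2 difference of -0.69 ± 0.12 (adjusted p = 2.79e-05) and -0.68 ± 0.12 (adjusted p = 5.44e-05). Culture time and whatever else differed between the 2 time points, which were deposited as 2 tables, cannot be told apart for the DMSO differences.

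**Figure D3:**
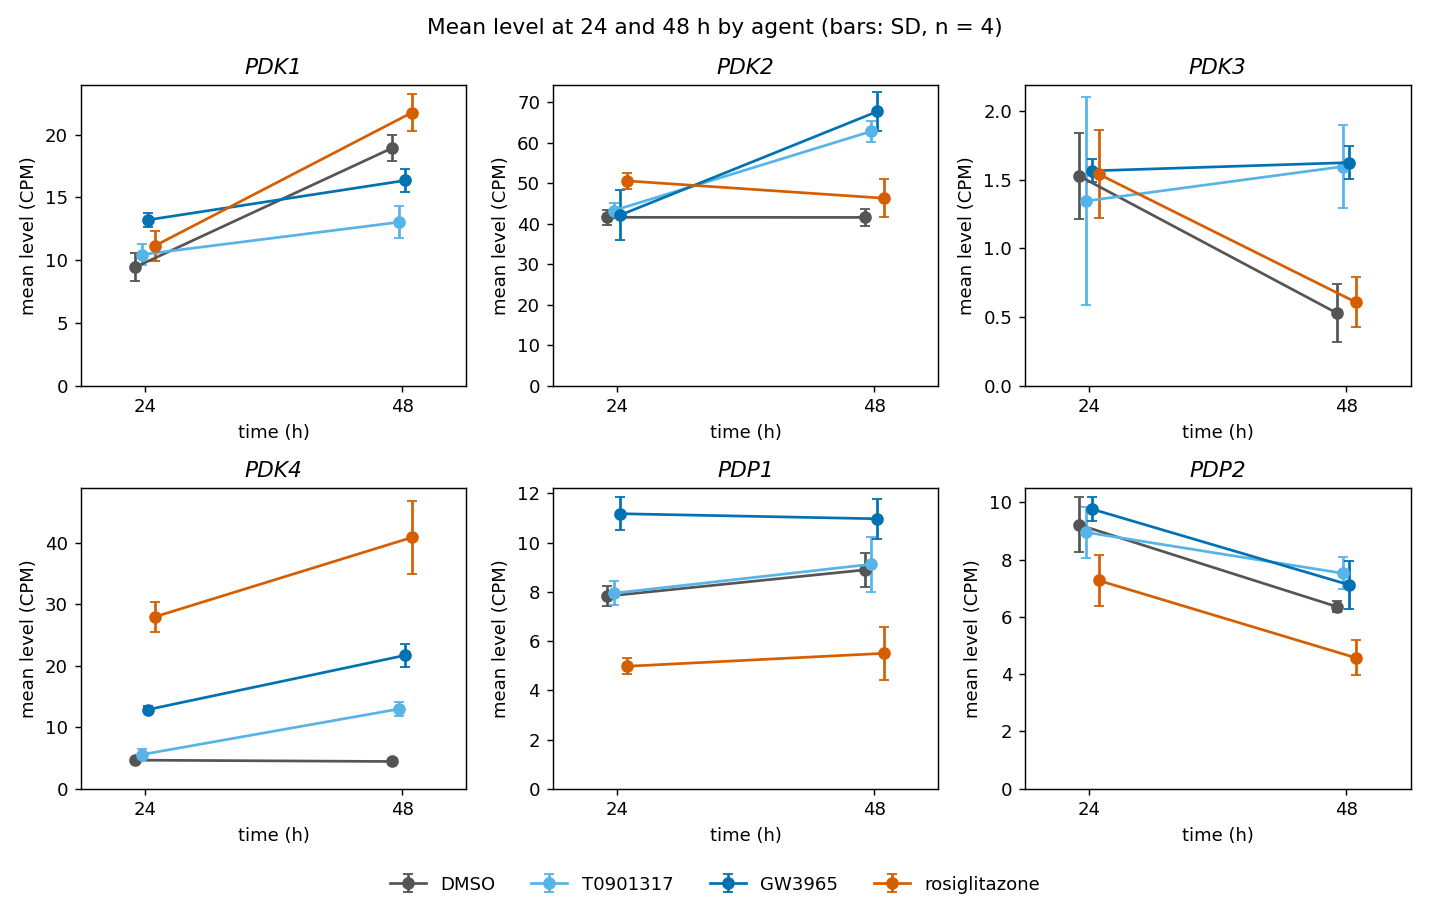
Mean level in CPM (y axis, from 0) of the 6 genes at 24 and 48 h (x axis, hours) by agent (colour), with the SD of 4 libraries; points are shifted sideways for legibility. The DMSO line of PDK3 falls from 1.53 to 0.530 CPM while the lines of both LXR agonists stay between 1.34 and 1.62 CPM, and the DMSO line of PDK1 rises from 9.45 to 18.9 CPM.

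Ordered over the 8 groups by mean level, PDK4 ran from DMSO at 48 h (4.44 CPM) to rosiglitazone at 48 h (40.9 CPM), a range of 9.22-fold. Neighbours in this order overlapped between the 2 DMSO groups, between DMSO and T0901317 at 24 h, and between GW3965 at 24 h (12.9 ± 0.619 CPM) and T0901317 at 48 h (13.0 ± 1.21 CPM). The range was 3.06-fold for PDK3, 2.30-fold for PDK1, 2.25-fold for PDP1, 2.14-fold for PDP2 and 1.63-fold for PDK2. PDK2 was highest with GW3965 at 48 h (67.8 ± 4.73 CPM), overlapping T0901317 at 48 h (62.8 ± 2.62 CPM), and neither overlapped the other 6 groups, each of which overlapped its neighbour among those 6. GW3965 at 24 h was the highest group for both phosphatases, and the lowest was rosiglitazone, at 24 h for PDP1 and at 48 h for PDP2. PDP1 of the 2 rosiglitazone groups overlapped, at 4.98 ± 0.330 and 5.50 ± 1.08 CPM, and both lay below all other groups.

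Of the enzyme complex on which these kinases and phosphatases act, 6 genes were listed. Of these 6 (PDHA1, PDHB, DLAT, DLD, PDHX and PDPR, the last the regulatory subunit of the phosphatase), at most 1 passed in any comparison with DMSO, and none was lower. Over all genes 16.1% (GW3965) and 14.0% (T0901317) were higher at 48 h, which 1 of 6 is near, and 5.81% were higher with rosiglitazone at 24 h. The genes that passed were PDHA1, the E1 alpha subunit, with rosiglitazone at 24 h (log2 change 0.23 ± 0.05), and DLAT, the E2 subunit, at 48 h with GW3965 (0.36 ± 0.06) and T0901317 (0.44 ± 0.06). These 2 genes were chosen after their values were seen. None of the 3 genes for lipoylation, which attaches the cofactor of the E2 subunit, passed in any of the 6 comparisons.

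Of 9 genes for pyruvate transport and its other uses, 4 were higher and 2 lower with GW3965 at 48 h, 2 higher and 1 lower with T0901317, and 4 higher and 1 lower with rosiglitazone. Over all genes the shares higher and lower were 16.1% and 17.5%, 14.0% and 16.1%, and 12.3% and 13.1% in that order, and the counts for T0901317 were near them. At 24 h the counts were 1, 2 and 0 higher in the same order, against 1.86%, 1.33% and 5.81% of all genes, and none lower. PC, the carboxylase that makes oxaloacetate from pyruvate, was higher at 48 h with rosiglitazone (0.65 ± 0.11) and GW3965 (0.60 ± 0.11) and at -0.05 ± 0.11 with T0901317, all on the log2 scale. GPT2, a mitochondrial transaminase between pyruvate and alanine, was higher at 24 h with GW3965 (0.54 ± 0.10) and T0901317 (0.52 ± 0.10). At 48 h it was lower with both, by -0.65 ± 0.08 and -1.02 ± 0.08. Its DMSO mean was 121 CPM at 24 h and 427 CPM at 48 h. The GW3965 mean went from 177 to 274 CPM and the T0901317 mean from 173 to 211 CPM, so both rose less than DMSO did. The 24 h call with T0901317 (adjusted p = 0.00473) was lost in 6 of 8 fits without 1 library, those without DMSO replicate 1, 3 or 4 or T0901317 replicate 1, 2 or 3 (adjusted p between 0.0107 and 0.0234).

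The branched-chain ketoacid dehydrogenase is a related complex with its own kinase and phosphatase. Its phosphatase, PPM1K, was lower with rosiglitazone at both times, as PDP1 was. The log2 change was -1.11 ± 0.21 after 24 h (adjusted p = 0.000686) and -0.90 ± 0.20 after 48 h (adjusted p = 0.00127). The level of PPM1K was low, with means at 24 and 48 h of 1.92 and 1.84 CPM in DMSO and 0.882 and 1.01 CPM with rosiglitazone. With GW3965 at 48 h PPM1K was higher (0.68 ± 0.17, adjusted p = 0.00333), a call that was lost without DMSO replicate 1 (0.52, adjusted p = 0.0126) or GW3965 replicate 4 (0.62, adjusted p = 0.0135). Of the 5 genes of this list, 1 was lower and none higher after 24 h of rosiglitazone, while after 48 h 2 were lower and 1 higher, against 6.52% of all genes lower at 24 h and 13.1% lower and 12.3% higher at 48 h. For the LXR agonists 2 were higher with GW3965 and 1 with T0901317 at 48 h, and none passed with either LXR agonist at 24 h. With 16.1% (GW3965) and 14.0% (T0901317) of all genes higher at 48 h, counts of 1 among 5 genes are near the share of all genes.

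Of 10 factors and coactivators known to act on PDK4 in other tissues, 8 were tested; PPARGC1A and NR3C1 reached at most 17 and 3 counts in a library and fell below the filter. With rosiglitazone 3 were higher and 1 lower at each time, against 5.81% and 6.52% of all genes at 24 h and 12.3% and 13.1% at 48 h. PPARD, a PPAR isoform, was higher by a log2 change of 0.94 ± 0.09 at 24 h and 1.94 ± 0.10 at 48 h, and the coactivator PPARGC1B was higher by 0.99 ± 0.08 and 1.16 ± 0.14. PPARG, the target of the drug, was lower by -0.50 ± 0.07 and -0.47 ± 0.08. At 24 h 1 of the 8 passed with GW3965 (FOXO1, higher by 0.42 ± 0.06), against 1.86% of all genes higher, and none with T0901317.

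At 48 h GW3965 raised 4 and lowered 4 of the 8, against 16.1% and 17.5% of all genes, and T0901317 raised 2 and lowered 4, against 14.0% and 16.1%. PPARGC1B was higher with both (log2 change 1.21 ± 0.14 and 1.07 ± 0.14), whereas PPARD was lower (-0.55 ± 0.10 and -0.74 ± 0.10), in contrast to its increase with rosiglitazone. PPARG was lower by -1.08 ± 0.08 with GW3965 and -0.71 ± 0.08 with T0901317. FOXO1, a forkhead factor restrained by insulin signalling, was lower by -0.72 ± 0.07 and -0.82 ± 0.07 in the same order. The DMSO means of PPARG (45.5 and 80.0 CPM at 24 and 48 h) and FOXO1 (26.7 and 45.7 CPM) were also higher at 48 h. PDK4 was higher in 5 comparisons, and PPARG mRNA was lower in 4 of these. The exception was GW3965 at 24 h (-0.10 ± 0.07, adjusted p = 0.557). Whether the changes of PDK4 and PPARG are linked was not tested.

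Of the 6 genes of the hypoxia list, which holds HIF1A and known targets of HIF1, 2 were higher with GW3965 and 1 with T0901317 at 24 h, and 3 were lower with rosiglitazone. Over all genes these shares were 1.86%, 1.33% and 6.52%. At 48 h 1 was higher and 2 lower with each LXR agonist, and 2 were lower with rosiglitazone. Of all genes, 16.1% and 14.0% were higher with GW3965 and T0901317 at that time, which 1 of 6 is near, 17.5% and 16.1% were lower, and 13.1% were lower with rosiglitazone. VEGFA, an angiogenic growth factor, was higher at 24 h with GW3965 (1.12 ± 0.06) and T0901317 (0.86 ± 0.06, log2 change) and lower at 48 h (-0.94 ± 0.09 and -1.17 ± 0.09), when its DMSO level was higher by 2.94 ± 0.08 than at 24 h. SLC2A1, a glucose transporter, was higher with GW3965 at 24 h (0.46 ± 0.08) and lower with T0901317 at 48 h (-0.79 ± 0.07). CA9 and EGLN3 were lower with rosiglitazone at 24 and 48 h, whereas PDK1 did not pass with rosiglitazone. The log2 changes were -0.49 ± 0.10 and -0.55 ± 0.12 for CA9 and -0.62 ± 0.09 and -0.73 ± 0.14 for EGLN3. With the LXR agonists at 48 h, CA9 was higher with T0901317 (0.73, adjusted p = 6.64e-05) and EGLN3 with GW3965 (0.53, adjusted p = 0.00194).

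**Figure D4:**
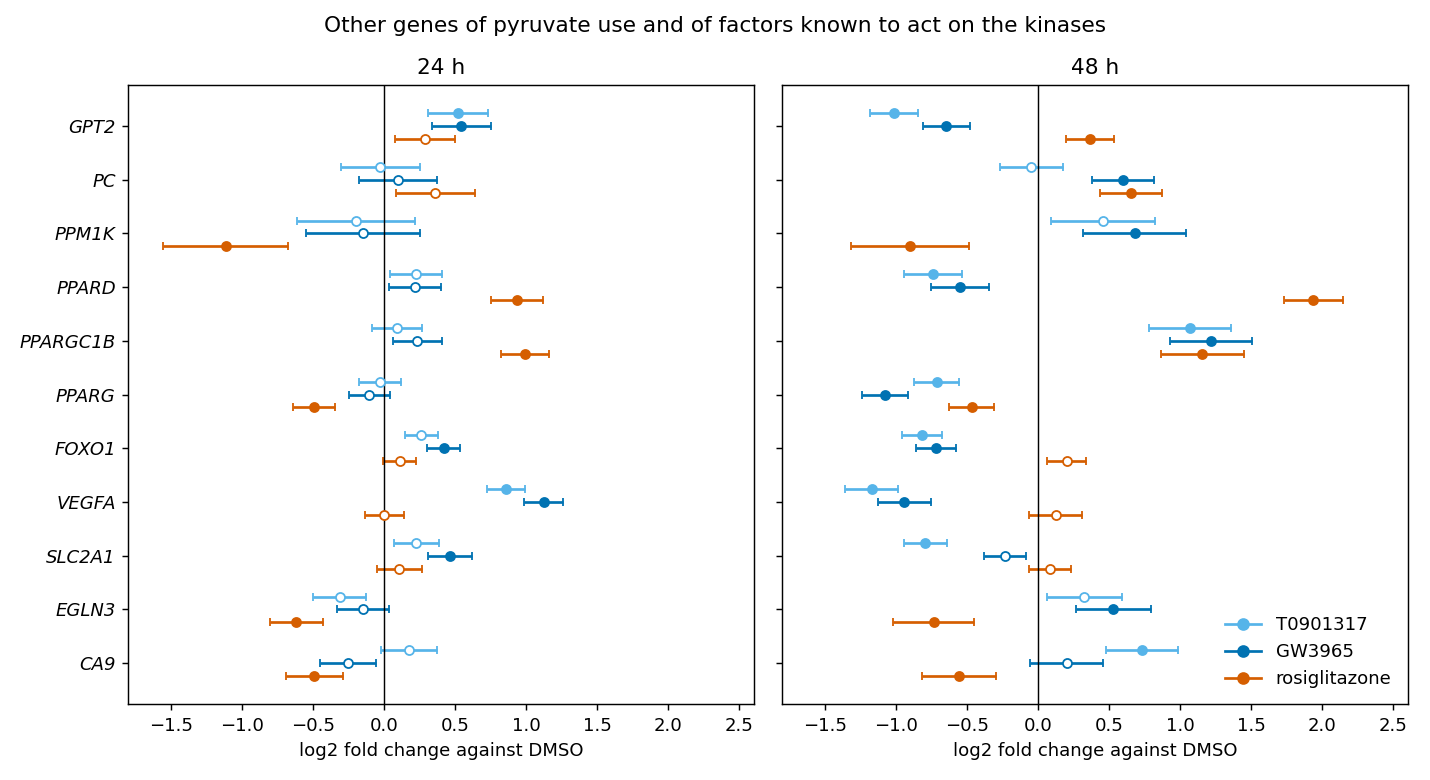
Log2 fold change against DMSO (x axis) of 11 genes of the pathway lists (y axis) at 24 h (left) and 48 h (right) for each drug (colour); bars are 95% intervals and filled points passed at an adjusted p under 0.01. PPARD reaches 1.94 with rosiglitazone at 48 h, where both LXR agonists lie left of 0, and VEGFA changes sign between the times with the LXR agonists.

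Among 14503 other genes, those whose log2 level was most like that of PDK4 over the 32 libraries included FABP1, a fatty acid-binding protein (r = 0.946), and ACADVL, which starts the beta-oxidation of very long-chain fatty acids (r = 0.945). For PDK1 they were SHMT2, the mitochondrial serine hydroxymethyltransferase (r = 0.942), SH3TC1 and SNTB1, and for PDK2 they were MMRN2, C4orf14 and SAMD14 (r = 0.923 to 0.913). PDK3 had the weakest likeness, to SURF4, BMP4 and TMEM104 (r = 0.861 to 0.853). PDP1 was most like PRODH, a proline dehydrogenase (r = 0.925), SLC6A20 and ENTPD8, and PDP2 most like RP11-293I14.2 (r = 0.925), DDAH1 and TMEM19. The 32 libraries share 8 groups and 2 time points, so these correlations describe group levels as much as libraries. Between the 6 genes themselves, r over the same libraries ran from -0.764, for PDK1 and PDP2, to 0.535, for PDK3 and PDP2, and PDK4 had r = -0.399 with PDP1 and -0.516 with PDP2.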

How the data were processed

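HT29 mRNA was sequenced from both ends after transposase fragmentation (Nextera), in 32 libraries of 8 groups. The authors deposited whole-number counts per Ensembl gene, 1 table for each time point, without normalization. The submitters' processing notes name TopHat, Cufflinks and the build hg19; for the counting program and its strand setting, the sources used here give nothing. Columns whose names hold ROSA were read as rosiglitazone, since no other agent of the labels matches that name. ChIP-seq peaks were not used here.

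Counts were analysed with edgeR 4.0.16 in R 4.3.3. Genes with low counts were removed with filterByExpr, which left 21781 genes at 24 h, 22470 at 48 h and 23140 over both, and libraries were scaled by TMM. Comparisons within a time point used its 16 libraries; comparisons between times used all 32. Each was tested by the quasi-likelihood F test with Benjamini-Hochberg adjustment, and standard errors were derived from the fold change and F. Correlations used log2 CPM with a prior count of 2, over genes whose mean log2 CPM reached 1. The scripts were tested on simulated counts. Alternatives were DESeq2 1.42.0, other scalings, no filter, the replicate number as a block, other sets of libraries in the fit, a test against a fold change of 1.5 (glmTreat), and leaving out each library. No pair of libraries in a group differed by as little as sampling noise (lowest chi-square per degree of freedom 3.97). The highest value was 85.6, between replicates 1 and 3 of GW3965 at 24 h. In that group replicate 1 gave 37.1 and 77.3 against replicates 2 and 4. Replicates 2, 3 and 4 gave 5.88 to 13.2 among themselves. Replicates 1 and 3 of rosiglitazone at 48 h gave 61.7. Motifs were searched with Python 3.11.15 and plots drawn with matplotlib 3.10.9.

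Named genes were all 6 members, up to 4 genes from each of 6 lists (39 genes) that passed with a fold change of at least 1.5 in a comparison with DMSO, and the 3 genes most like each member, of which 1 is not reported here. PDHA1 and DLAT were named outside this rule, as the only calls of their list. Members and lists were chosen with earlier results of these data known.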

Additional observations from a re-analysis of the deposited data

Results flagged for a closer look

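The responses of 4 kinases differed between 24 and 48 h for both LXR agonists in the test of the difference itself. The log2 difference (48 h minus 24 h) was 0.82 for PDK4, 1.59 for PDK3, 0.69 for PDK2 and -0.69 for PDK1 with GW3965. It was 1.30 for PDK4, 1.85 for PDK3, 0.54 for PDK2 and -0.68 for PDK1 with T0901317. Both agonists were set against the same DMSO libraries, so the agreement in sign is not independent, and in DMSO the level of PDK3 was lower and that of PDK1 higher at 48 h.

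In 3 of 48 sets of 4 libraries, 1 library stood far from the other 3 by Dixon's test at its 95% critical value, where chance gives about 1 set in 20. PDK4 with GW3965 at 48 h was 18.9 CPM in replicate 2 and 22.4 to 23.0 CPM in the others. PDP1 with DMSO at 48 h was 9.91 CPM in replicate 3 and 8.50 to 8.58 CPM in the others. PDP2 with rosiglitazone at 24 h was 8.60 CPM in replicate 3 and 6.68 to 6.95 CPM in the others, and PDP2 passed the test in this comparison without that library.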

How the results depend on the processing

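The number of the 6 genes that passed stayed within 1.5 times that of the report in 14 of 14 comparisons with DESeq2 size factors and without the low count filter, and in 10 of 10 with all 32 libraries in the fit. For GW3965 against T0901317 at 48 h it was 1 in place of 2 with scaling by library size, with the replicate number as a block, in the fit of only the 8 libraries compared, and in 6 of 8 fits without 1 library (range 1 to 2). For the same agonists at 24 h it was 1 in place of 2 in the fit of only the 8 libraries. For the rosiglitazone response at 48 h against 24 h it was 1 in place of 0 with DESeq2, with the replicate block, and in 2 of 16 fits without 1 library (range 0 to 1); the gene was PDK4. Against a fold change of 1.5 it was 1 in place of 3 for GW3965 and 1 in place of 2 for rosiglitazone at 24 h, and 2 in place of 4 for T0901317 and 1 in place of 3 for rosiglitazone at 48 h, where the test asks for more by construction. The cause of the other changes was not tested. Whether the replicate numbers pair the libraries is not given by the labels. Deviations of libraries with the same number correlated from -0.374 to 0.460, and in no comparison did every library correlate best with its own number. With 4 libraries in a group, these correlations cannot decide whether the libraries were paired.

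Signs turned only where the change had not passed the test. With scaling by library size the log2 change against DMSO became -0.0353 for PDK2 and -0.0106 for PDK3 with GW3965 at 24 h, -0.0155 for PDP1 with T0901317 at 24 h, -0.0815 for PDK3 and -0.0915 for VEGFA with rosiglitazone at 24 h, and -0.00127 for PDK1, -0.0406 for PDK2, -0.0595 for VEGFA and -0.0942 for SLC2A1 with rosiglitazone at 48 h. PDK3 between the LXR agonists at 48 h became -0.0576. This scaling moved the share of higher genes among all calls from 60.2% to 31.9% for GW3965 against T0901317 and from 49.8% to 35.9% for rosiglitazone against GW3965 at 48 h. For the change of the response with time that share went from 42.9% to 55.7% (T0901317) and from 56.5% to 29.3% (rosiglitazone). PDK2 in DMSO at 48 h against 24 h, -0.000734 in the report's fit, was 0.00403 with DESeq2, 0.00417 with its size factors in edgeR, 0.0225 with library size and 0.0119 without the filter.

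Without 1 library, the log2 change against DMSO at 24 h ranged with GW3965 from -0.0655 to 0.102 for PDK2, -0.0897 to 0.170 for PDK3 and -0.00500 to 0.258 for PC. With T0901317 it ranged from -0.00892 to 0.0561 for PDP1, -0.104 to 0.0276 for PDP2, -0.0906 to 0.0104 for PC and -0.0877 to 0.0290 for PPARG, and with rosiglitazone from -0.106 to 0.153 for PDK3 and -0.0176 to 0.0333 for VEGFA. At 48 h it ranged from -0.0586 to 0.0885 for PDP1 and -0.154 to 0.05003 for PC (T0901317), and -0.0377 to 0.467 for PDK3 (rosiglitazone). Between GW3965 and T0901317 it ranged from -0.126 to 0.0409 for PDK2 at 24 h and -0.0881 to 0.142 for PDK3 at 48 h, and between rosiglitazone and GW3965 from -0.123 to 0.0613 for PDK3 at 24 h. Between the times it ranged from -0.0289 to 0.0348 for PDK2 in DMSO, -0.0787 to 0.0617 for the response of PDP1 to T0901317, and, for responses to rosiglitazone, -0.0937 to 0.0198 for PDK1, -0.0642 to 0.473 for PDK3 and -0.121 to 0.0864 for PDP1. The low counts of PDK3 limit its precision, with standard errors between 0.22 and 0.41 in all 14 comparisons. Over the means of the 8 groups in place of the libraries, the genes named as most like a member had r between 0.933 and 0.980, and of the 3 most like each member 0 to 2 were again among the 3 highest.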
